A study of Mus musculus with 12 samples.

Results

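The genes described here are 10 genes of major histocompatibility complex (MHC) class I antigen presentation, chosen by name: the light chain B2m, the heavy chains H2-K1, H2-D1 and H2-T23, the peptide transport and loading genes Tap1, Tap2 and Tapbp, the transactivator Nlrc5, and the immunoproteasome subunits Psmb8 and Psmb9. They are 10 of the 22607 genes in the deposited table of read counts, and all 10 passed the filter on low counts that left 16007 genes for testing. Earlier results of these data were known when they were chosen, so shares of all genes given beside their counts are description only. The table holds mRNA sequencing of tibialis anterior, a muscle of the shin, from C57BL/6 male mice aged 13 weeks. There were 4 groups of 3 libraries, and every muscle carried a vector. ADF Crtc2 muscle carried a Crtc2 vector and came from mice after 3 rounds of alternate day fasting (ADF). ADF GFP muscle carried the GFP control vector and came from mice on the same ADF schedule. Fed Crtc2 muscle carried the Crtc2 vector, and fed GFP muscle the GFP vector, both from mice fed ad libitum. Crtc2 protein works as a partner that boosts transcription by Creb1. The labels give neither the promoter of the vector nor the share of fibres it reached. They do not say that libraries of a group came from separate animals or whether muscles with the 2 vectors shared animals, so p-values measure only how far these libraries differ among themselves, and that may be technical.

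MHC class I molecules stand on the surface of nearly all nucleated cells and show peptides from proteins made inside the cell to CD8 T cells and natural killer cells. The proteasome cuts the peptides, and the Tap1 and Tap2 transporter carries them into the endoplasmic reticulum. Tapasin (Tapbp) holds the transporter next to an empty class I molecule, and the loaded heavy chain leaves together with B2m. Resting skeletal muscle fibres are known for low class I expression, and interferon raises it through Irf1 and Nlrc5, among others. Leukocytes and endothelium express class I constitutively. Nlrc5 acts on the SXY module of class I promoters, whose X part includes a site for factors of the CREB and ATF family and whose Y part is an inverted CCAAT box bound by NF-Y.

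Libraries held 24232450 to 34610417 counts. Crtc2 checks the vector labels. It was counted at 42.8, 40.6 and 31.4 CPM (counts scaled to library size, with trimmed mean of M values factors, TMM) in ADF Crtc2 muscle, against 19.7, 16.1 and 23.6 CPM in ADF GFP muscle. It was counted at 64.9, 58.2 and 77.9 CPM in fed Crtc2 muscle, against 29.2, 17.3 and 24 CPM in fed GFP muscle. Every Crtc2 library lay above every GFP library, and the difference averaged over both diets passed the test (log2 fold change 1.23 ± 0.20, SE, adjusted p = 0.00578). That p is from edgeR's quasi-likelihood test with Benjamini-Hochberg adjustment over all genes tested, as is every adjusted p here unless another tool is named, and the threshold is 0.05. Within a diet Crtc2 itself did not pass, at 0.95 ± 0.27 under ADF (adjusted p = 0.127) and 1.51 ± 0.28 in fed muscle (adjusted p = 0.134). In Crtc2 muscle every ADF library lay below every fed library for Crtc2 (-0.81 ± 0.27, adjusted p = 0.0623). All 9 muscle fibre markers were detected in each group, and their summed level was 170641 to 190142 CPM in ADF Crtc2, 131407 to 193712 CPM in ADF GFP, 116835 to 183159 CPM in fed Crtc2 and 127503 to 164819 CPM in fed GFP muscle. Within the sum, Acta1, skeletal actin, was higher under ADF in Crtc2 muscle (1.02 ± 0.18, adjusted p = 0.000489) and GFP muscle (1.11 ± 0.18, adjusted p = 0.000357), and Mylpf, a fast myosin light chain, was lower (-0.64 ± 0.19, adjusted p = 0.0279, and -0.81 ± 0.19, adjusted p = 0.00945). The protocols name 2 library preparation kits without assigning them to libraries, so a preparation difference that followed the diets cannot be told apart from ADF. In whole muscle, fewer cells of a type and less RNA per cell cannot be told apart.

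The 10 genes were lowest in ADF Crtc2 muscle: its mean was the lowest of the 4 groups for 10 of 10 genes. For 8 of them (all except H2-D1 and Psmb9) each of the 3 ADF Crtc2 libraries lay below each of the other 9 libraries, as did 2.73% of all genes tested. Fed GFP muscle had the highest mean for 6 genes (B2m, H2-K1, H2-T23, Tap1, Nlrc5 and Psmb8), ADF GFP muscle for H2-D1 and Tapbp, and fed Crtc2 muscle for Tap2 and Psmb9. B2m shows the pattern: it stood at 133, 170 and 147 CPM in ADF Crtc2 muscle, at 534, 464 and 655 CPM in ADF GFP muscle, at 269, 348 and 418 CPM in fed Crtc2 muscle and at 894, 592 and 688 CPM in fed GFP muscle. The ADF Crtc2 libraries were the lowest of the 12 and fed Crtc2 libraries came next, while ADF GFP and fed GFP libraries overlapped.

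**Figure D1:**
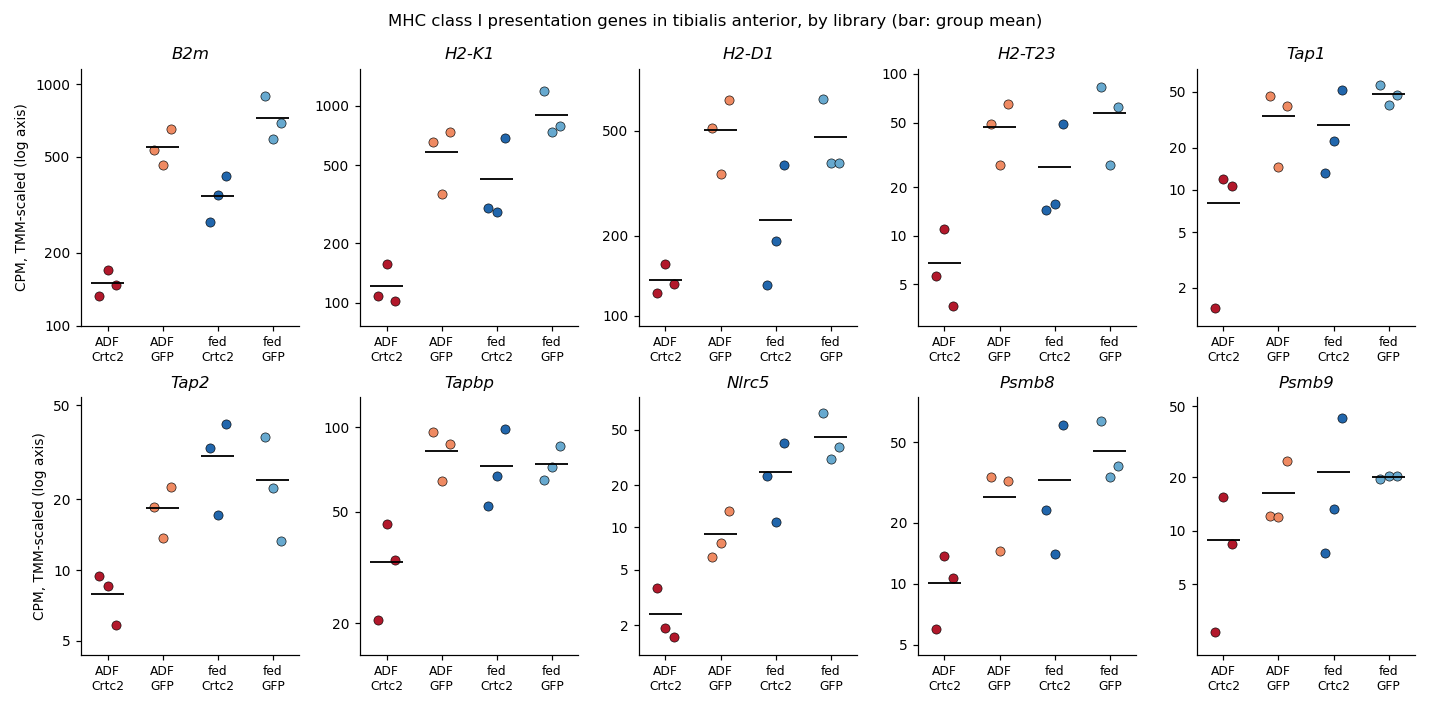
Levels of the 10 class I presentation genes in the 12 libraries, in TMM-scaled CPM on a log axis that differs between panels, with points for libraries and a bar for the mean of 3. ADF Crtc2 muscle has the lowest mean in all 10 panels, and fed Crtc2 muscle is split, with replicate 3 above the other 2 libraries throughout.

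Under ADF, 5 of the 10 genes were lower in Crtc2 muscle than in GFP muscle (B2m, H2-K1, H2-D1, H2-T23 and Tapbp) and 0 higher. Of all genes tested, 0.65% were called lower and 0.075% higher. The 10 log2 fold changes were all negative, from -2.80 to -0.87, with a median of -1.88 beside -0.01 over all genes, and for 9 of the 10 (all except Psmb9) every Crtc2 library lay below every GFP library. That held for 11.8% of all genes, and the opposite for 9.6%. The count depended on single libraries. It was 1, B2m alone, without ADF Crtc2 replicate 1 or 3 or ADF GFP replicate 1 or 3. It was 4 without ADF Crtc2 replicate 2 and 5 without ADF GFP replicate 2. DESeq2 called 7 of the 10, and edgeR without the filter on low counts 8. Over all genes, DESeq2 called 430 lower and 126 higher of 16007. Without the filter, edgeR called 347 lower and 38 higher of 22607.

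In fed muscle, Crtc2 was set against GFP in the same way and 0 of the 10 genes passed with edgeR, as did 0% of all genes tested in either direction. At an unadjusted p under 0.05 there were 3 of the 10 (B2m, H2-K1 and H2-D1) and 871 of all genes. DESeq2 called 1 of the 10, B2m, with an adjusted p of 6.67e-05, and of all genes 35 higher and 29 lower. Without fed GFP replicate 2 or fed Crtc2 replicate 3, edgeR called B2m too, at adjusted p of 0.0227 and 0.0483. B2m, H2-K1 and H2-D1 were also the ones whose fed Crtc2 libraries all lay below the fed GFP libraries. That held for 3.84% of all genes, and the opposite for 4.7%. The median of the 10 log2 fold changes was -0.79 beside 0.01 over all genes, with Tap2 (0.34) and Psmb9 (0.09) on the positive side. Averaged over both diets, 4 of the 10 genes were lower with Crtc2 (B2m, H2-K1, H2-D1 and H2-T23), where 0.469% of all genes were lower and 0.025% higher. B2m fell by 1.47 ± 0.14 on the log2 scale (adjusted p = 1.58e-05). DESeq2 called 6 of the 10, adding Tap1 (adjusted p = 0.0483) and Nlrc5 (0.0151), and edgeR without the filter on low counts called 8. Over all genes, DESeq2 called 296 lower and 64 higher of 16007. Without the filter, edgeR called 319 lower and 25 higher of 22607. The edgeR count of 4 was 2 to 6 when 1 library was left out, with 2 without ADF GFP replicate 1 or 3, ADF Crtc2 replicate 1 or 3, or fed Crtc2 replicate 2.

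Between the diets, more of the genes passed in Crtc2 muscle than in GFP muscle. In Crtc2 muscle, 7 of the 10 genes were lower under ADF (B2m, H2-K1, H2-T23, Tap2, Tapbp, Nlrc5 and Psmb8) and 0 higher, where 4.68% of all genes were lower and 6.3% higher. The median log2 fold change was -1.75 beside -0.13 over all genes. For 8 of the 10 (all except H2-D1 and Psmb9) every ADF library lay below every fed library, as for 15.7% of all genes. The count was 4 without ADF Crtc2 replicate 1 and 4 without fed Crtc2 replicate 3. In GFP muscle 1 of the 10, Nlrc5, was lower under ADF and 0 higher, where 3.06% of all genes were lower and 4.06% higher. The median was -0.40 beside -0.01. Nlrc5 was also the one gene of the 10 whose ADF libraries all lay below the fed ones, as for 11.3% of all genes, and 14.3% did the opposite. Averaged over both vectors, 5 of the 10 were lower under ADF (B2m, H2-K1, Tap2, Nlrc5 and Psmb8), where 8.64% of all genes were lower and 9.38% higher. Scaling by library totals in place of TMM turned the calls over all genes in Crtc2 muscle to 511 higher and 1234 lower, beside 1009 and 749, and in GFP muscle to 476 and 596, beside 650 and 490. Over both vectors it gave 991 higher and 2005 lower, beside 1501 and 1383. It moved the median log2 fold change of all genes in Crtc2 muscle to -0.43, beside -0.13. With it, 7 of the 10 genes were called lower in Crtc2 muscle and 1 in GFP muscle.

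Whether the vector difference itself depended on diet was tested as an interaction. The diet by vector interaction, the log2 fold change of Crtc2 over GFP under ADF minus that in fed muscle, was negative for 10 of 10 genes, from -1.68 to -0.81, with a median of -1.12 beside -0.08 over all genes. After the filter on low counts, none of the 10 passed with edgeR or DESeq2, and 0% of all genes did with edgeR. Without that filter edgeR called 1 of the 10, H2-K1 (adjusted p = 0.0307), and of 22607 genes 10 higher and 57 lower. With DESeq2, 26 of all genes passed as higher and 85 as lower. With edgeR, 5 of the 10 and 1240 of all genes had an unadjusted p under 0.05. Adjusted p-values of the 10 with edgeR after the filter were 0.516 to 0.847. The 4 comparisons share libraries in pairs, so their values for a gene are not independent of each other.

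**Figure D2:**
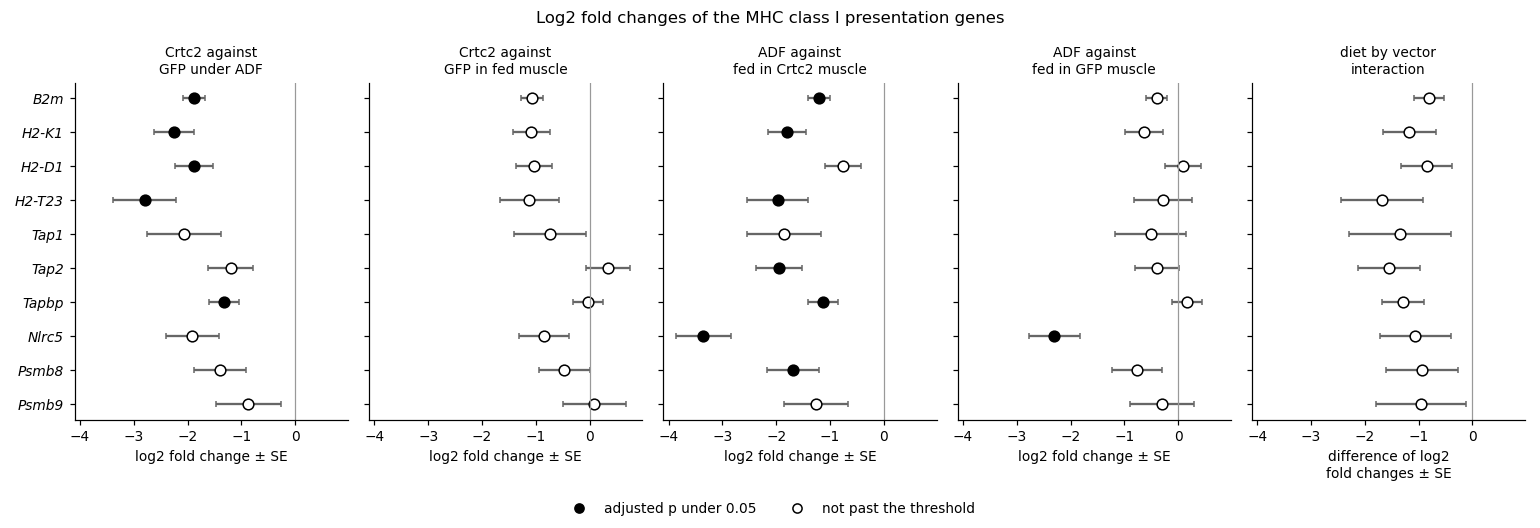
Log2 fold changes of the 10 genes in 4 comparisons and the diet by vector interaction, each with its SE, where filled points passed an adjusted p of 0.05 and open points did not. Filled points number 5 for Crtc2 against GFP under ADF, 0 in fed muscle, 7 for ADF against fed in Crtc2 muscle, 1 in GFP muscle and 0 for the interaction.

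The light chain and all 3 heavy chains were lower with Crtc2 under ADF. The 250 bases before the RefSeq start of each of these 4 chain genes (RefSeq, GRCm38.p6, 5′ to 3′ on the gene's strand) are shown. Tapbp passed in the same comparison and is not shown. Capitals mark TGACG or CGTCA, the core of the cyclic AMP response element, ATTGG or CCAAT, the inverted CCAAT box and its complement, and AANNGAAA or TTTCNNTT, a core bound by interferon regulatory factors.
B2m, chr2:122147437-122147686, plus strand: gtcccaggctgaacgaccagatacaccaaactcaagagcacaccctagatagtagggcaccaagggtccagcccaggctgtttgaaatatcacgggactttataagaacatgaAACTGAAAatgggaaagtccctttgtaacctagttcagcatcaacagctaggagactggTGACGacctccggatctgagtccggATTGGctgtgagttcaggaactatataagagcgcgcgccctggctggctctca
H2-K1, chr17:34000348-34000597, minus strand: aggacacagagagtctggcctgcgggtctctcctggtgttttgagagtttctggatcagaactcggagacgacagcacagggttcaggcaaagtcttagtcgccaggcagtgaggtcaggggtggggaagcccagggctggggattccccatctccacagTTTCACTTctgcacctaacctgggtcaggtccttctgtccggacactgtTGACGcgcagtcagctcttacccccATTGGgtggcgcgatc
H2-D1, chr17:35262844-35263093, plus strand: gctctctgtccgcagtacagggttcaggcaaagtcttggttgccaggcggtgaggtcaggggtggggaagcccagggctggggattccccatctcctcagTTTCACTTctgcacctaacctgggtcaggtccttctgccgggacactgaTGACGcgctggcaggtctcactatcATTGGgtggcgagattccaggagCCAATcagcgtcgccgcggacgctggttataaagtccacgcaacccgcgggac
H2-T23, chr17:36032702-36032951, minus strand: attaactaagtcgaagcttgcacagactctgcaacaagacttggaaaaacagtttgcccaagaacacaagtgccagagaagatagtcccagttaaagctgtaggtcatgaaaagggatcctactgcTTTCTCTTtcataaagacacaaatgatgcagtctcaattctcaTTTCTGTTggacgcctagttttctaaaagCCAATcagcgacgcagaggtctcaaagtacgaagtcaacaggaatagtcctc
Promoters of 8 of the 10 genes matched the RefSeq table, and those of Nlrc5 and Tap2 did not. On either strand, TGACG was found in 5 of the 8 (B2m, H2-K1, H2-D1, Tap1 and Psmb9) and in 17.8% of 32851 promoters of the same length. ATTGG was found in 7 of the 8 and in 33.8% of all, and AANNGAAA in 4 of the 8, the chain genes shown, and in 21.3% of all. The full palindrome TGACGTCA was in 0 of the 8 and in 1.55% of all. In B2m, H2-K1 and H2-D1 the TGACG was followed by ATTGG after 20 bases on the gene's strand, an arrangement that 30 of all promoters hold on either strand (0.0913%). This spacing was noticed in these sequences and then counted. H2-T23 and Tapbp had neither TGACG nor CGTCA in their windows. Tap1 and Psmb9, which had one of them, were not called for Crtc2 against GFP under ADF with edgeR. Whether these letters bear on the levels was not tested. H2-K1 has a second window in the table, which is not shown, and the windows of Tap1 and Psmb9 overlap on opposite strands, so they hold the same TGACG. These matches describe letters and not binding.

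B2m (chromosome 2, 122147686 to 122153083, plus strand, GRCm38, as are all positions) encodes beta-2-microglobulin, the light chain that every class I heavy chain needs to reach the surface. Its log2 fold change for Crtc2 over GFP was -1.88 ± 0.20 under ADF (adjusted p = 0.000122), a level 3.68-fold lower, and -1.07 ± 0.20 in fed muscle (adjusted p = 0.134). For ADF over fed it was -1.20 ± 0.20 in Crtc2 muscle (adjusted p = 0.000352) and -0.40 ± 0.20 in GFP muscle (adjusted p = 0.274). B2m was called in all 13 alternatives of these 2 calls, among them 6 that left out 1 library each. Its calls over both vectors (-0.80 ± 0.14, adjusted p = 0.000297) and over both diets held in all 18 alternatives of each.

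H2-K1 (chromosome 17, 33996017 to 34000347, minus strand) encodes the classical heavy chain H-2K. It was counted at 108, 157 and 102 CPM in ADF Crtc2 muscle, against 654, 356 and 739 CPM in ADF GFP muscle, and at 301, 288 and 686 CPM in fed Crtc2 muscle, against 1186, 732 and 784 CPM in fed GFP muscle. No Crtc2 library reached a GFP library of the same diet, and the ADF Crtc2 libraries lay below all others. The log2 fold change for Crtc2 over GFP was -2.26 ± 0.37 under ADF (adjusted p = 0.0123) and -1.08 ± 0.35 in fed muscle (adjusted p = 0.877). For ADF over fed it was -1.80 ± 0.36 in Crtc2 muscle (adjusted p = 0.00506) and -0.63 ± 0.35 in GFP muscle (adjusted p = 0.356). The call under ADF was lost without ADF Crtc2 replicate 1 or 3 or ADF GFP replicate 1 or 3, with a highest adjusted p of 0.11, and the call in Crtc2 muscle held in all 13 alternatives.

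H2-D1 (chromosome 17, 35262730 to 35267499, plus strand) encodes the other classical heavy chain, H-2D. It had 122, 156 and 132 CPM in ADF Crtc2 muscle, against 513, 344 and 652 CPM in ADF GFP muscle, and 130, 192 and 370 CPM in fed Crtc2 muscle, against 660, 378 and 378 CPM in fed GFP muscle. GFP libraries were above Crtc2 libraries of the same diet, while ADF and fed libraries overlapped with either vector. Crtc2 over GFP gave -1.88 ± 0.35 under ADF (adjusted p = 0.0257) and -1.03 ± 0.34 in fed muscle (adjusted p = 0.877). ADF over fed gave -0.76 ± 0.34 in Crtc2 muscle (adjusted p = 0.193) and 0.09 ± 0.34 in GFP muscle (adjusted p = 0.94). Under ADF the call remained when ADF GFP replicate 2 was left out and was lost without any of the other 5 libraries, at adjusted p up to 0.17.

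The 2 classical chains stood in a different ratio in the 2 diets. The ratio of H2-K1 to H2-D1 counts within a library was 0.885, 1.0 and 0.775 in ADF Crtc2 muscle and 1.28, 1.03 and 1.13 in ADF GFP muscle. It was 2.31, 1.5 and 1.85 in fed Crtc2 muscle and 1.8, 1.94 and 2.07 in fed GFP muscle. All 6 ADF libraries were below all 6 fed libraries. The ratio was not tested. The 2 genes share sequence: 4.08% of the 50-base words in H2-K1 transcripts also occur in H2-D1 transcripts and 5.44% of those of H2-D1 in H2-K1, so part of their reads could have been assigned to either, or dropped.

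**Figure D3:**
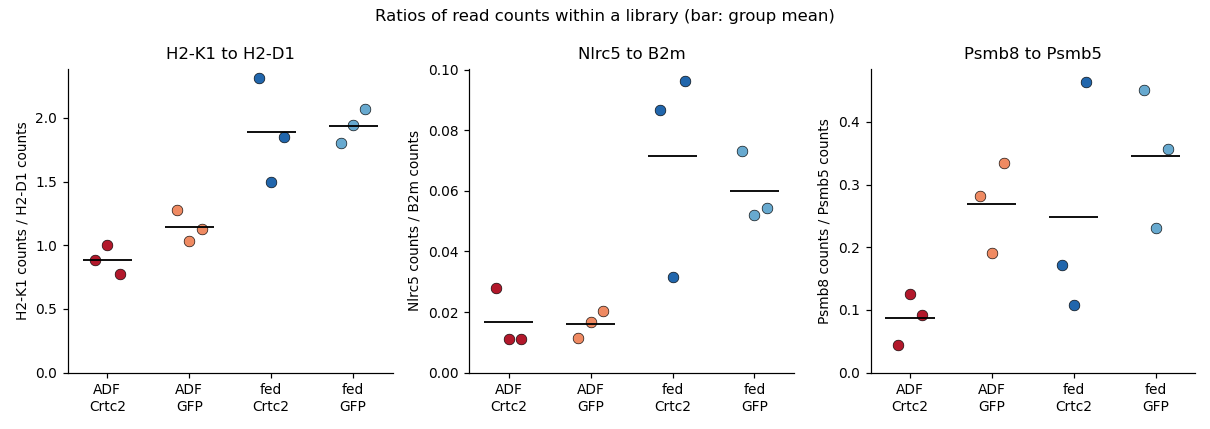
Ratios of read counts within each of the 12 libraries for H2-K1 to H2-D1, Nlrc5 to B2m and Psmb8 to Psmb5, with points for libraries and a bar for the mean of 3. For the first 2 ratios the 6 ADF libraries lie below the 6 fed libraries with no overlap, and for Psmb8 to Psmb5 the ADF Crtc2 libraries lie below the ADF GFP libraries.

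H2-T23 (chromosome 17, 36029773 to 36032855, minus strand) encodes Qa-1, a nonclassical chain read by the CD94 and NKG2 receptors of natural killer cells. Its level was 5.61, 11 and 3.70 CPM in ADF Crtc2 muscle, against 49.0, 27.5 and 65.2 CPM in ADF GFP muscle, and 14.5, 15.7 and 49.1 CPM in fed Crtc2 muscle, against 83.0, 27.2 and 62.3 CPM in fed GFP muscle. The ADF Crtc2 libraries lay apart below the rest, and the other groups overlapped. Crtc2 over GFP under ADF gave -2.80 ± 0.58 (adjusted p = 0.0433), a level 6.97-fold lower, the largest difference between the vectors among the 10 genes, and -1.12 ± 0.55 in fed muscle (adjusted p = 0.877). ADF over fed gave -1.97 ± 0.57 in Crtc2 muscle (adjusted p = 0.0376) and -0.28 ± 0.54 in GFP muscle (adjusted p = 0.871). Of its 50-base words 13.6% occur in transcripts of other genes. The call under ADF was lost without ADF Crtc2 replicate 1 or 3 or ADF GFP replicate 1 or 3 (adjusted p up to 0.241), and that in Crtc2 muscle without ADF Crtc2 replicate 1 or 3 or fed Crtc2 replicate 3 (up to 0.163).

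Of the peptide transport and loading genes, Tapbp was lower with Crtc2 under ADF, Tap2 and Tapbp were lower under ADF in Crtc2 muscle, all with edgeR. Tap1 passed no comparison with edgeR and 4 with DESeq2. Tapbp (chromosome 17, 33915899 to 33929292, plus strand) had 20.6, 45.2 and 33.6 CPM in ADF Crtc2 muscle, against 96.3, 64.5 and 87.1 CPM in ADF GFP muscle, and 52.4, 67 and 98.3 CPM in fed Crtc2 muscle, against 64.8, 72 and 85.6 CPM in fed GFP muscle. The ADF Crtc2 libraries were the lowest of the 12 and the other 9 overlapped across groups. Crtc2 over GFP gave -1.32 ± 0.28 under ADF (adjusted p = 0.0278) and -0.03 ± 0.28 in fed muscle (adjusted p = 1.0), and ADF over fed gave -1.13 ± 0.28 in Crtc2 muscle (adjusted p = 0.0105) and 0.16 ± 0.28 in GFP muscle (adjusted p = 0.854). The call under ADF was lost without ADF Crtc2 replicate 1 or 3 or ADF GFP replicate 1 or 3, at adjusted p up to 0.172. That in Crtc2 muscle was lost without ADF Crtc2 replicate 1 (0.0714) or fed Crtc2 replicate 3 (0.0766).

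Tap1 (chromosome 17, 34187553 to 34197225, plus strand) and Tap2 (chromosome 17, 34203527 to 34216321, plus strand) encode the 2 chains of the peptide transporter. Tap1 had 1.43, 12 and 10.6 CPM in ADF Crtc2 muscle, against 47.0, 14.6 and 39.7 CPM in ADF GFP muscle, and 13.1, 22.4 and 51.8 CPM in fed Crtc2 muscle, against 56.5, 40.3 and 47.8 CPM in fed GFP muscle. The ADF Crtc2 libraries were again the lowest, with replicate 1 far under the other 2, and the log2 fold changes carried wide errors (-2.07 ± 0.69 for Crtc2 over GFP under ADF, adjusted p = 0.263, and -1.86 ± 0.69 for ADF over fed in Crtc2 muscle, adjusted p = 0.115). DESeq2 called Tap1 lower in both (adjusted p = 0.0272 and 0.0175) and in the averages over both diets (0.0483) and both vectors (0.0256), and edgeR without the filter on low counts did so in the same 4 comparisons. Tap2 had 9.42, 8.57 and 5.83 CPM in ADF Crtc2 muscle, against 18.6, 13.7 and 22.5 CPM in ADF GFP muscle, and 33.1, 17.1 and 41.6 CPM in fed Crtc2 muscle, against 36.7, 22.4 and 13.3 CPM in fed GFP muscle. Its ADF Crtc2 libraries did not overlap with those of any other group. Tap2 was lower under ADF in Crtc2 muscle (-1.95 ± 0.43, adjusted p = 0.00408, called in all 13 alternatives), with -0.40 ± 0.41 in GFP muscle (adjusted p = 0.69). For Crtc2 over GFP it gave -1.20 ± 0.42 under ADF (adjusted p = 0.251) and 0.34 ± 0.41 in fed muscle (adjusted p = 1.0).

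The immunoproteasome subunits Psmb8 and Psmb9 take the places of the constitutive subunits Psmb5 and Psmb6 in interferon-treated cells and in leukocytes, and change which peptides are cut. Psmb8 (chromosome 17, 34197721 to 34201454, plus strand) had 5.96, 13.7 and 10.7 CPM in ADF Crtc2 muscle, against 33.5, 14.5 and 32.1 CPM in ADF GFP muscle, and 23.1, 14 and 61.0 CPM in fed Crtc2 muscle, against 63.9, 33.5 and 38.2 CPM in fed GFP muscle. Its ADF Crtc2 libraries lay below the rest by a small margin. Psmb8 was lower under ADF in Crtc2 muscle (-1.69 ± 0.49, adjusted p = 0.0293), a call lost without fed Crtc2 replicate 3 (-0.88, adjusted p = 0.26) and without ADF Crtc2 replicate 1 (0.146) or 3 (0.0969). It was also lost when only the compared groups were fitted (0.0522). In GFP muscle ADF over fed gave -0.76 ± 0.47 (adjusted p = 0.414), and Crtc2 over GFP gave -1.40 ± 0.48 under ADF (adjusted p = 0.255) and -0.47 ± 0.47 in fed muscle (adjusted p = 1.0). The ratio of Psmb8 to Psmb5 counts was 0.0434, 0.126 and 0.0927 in ADF Crtc2 muscle, against 0.281, 0.191 and 0.335 in ADF GFP muscle, and 0.171, 0.108 and 0.464 in fed Crtc2 muscle, against 0.451, 0.23 and 0.356 in fed GFP muscle. Under ADF the vectors did not overlap in this ratio, and in fed muscle they did. The ratio of Psmb9 to Psmb6 counts did overlap under ADF, at 0.0104, 0.0659 and 0.0382 in Crtc2 muscle and 0.0482, 0.0652 and 0.128 in GFP muscle.

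Psmb9 (chromosome 17, 34181987 to 34187764, minus strand) had 2.68, 15.5 and 8.43 CPM in ADF Crtc2 muscle, against 12.1, 12 and 24.6 CPM in ADF GFP muscle, and 7.47, 13.3 and 43.2 CPM in fed Crtc2 muscle, against 19.5, 20.3 and 20.4 CPM in fed GFP muscle. All groups overlapped except fed GFP with ADF Crtc2, and no comparison of Psmb9 passed, with -0.87 ± 0.60 for Crtc2 over GFP under ADF (adjusted p = 0.658) and -1.26 ± 0.60 for ADF over fed in Crtc2 muscle (adjusted p = 0.206). In fed muscle Crtc2 over GFP was 0.09 ± 0.59 and turned to -0.95 without fed Crtc2 replicate 3.

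Nlrc5 (chromosome 8, 94434356 to 94527272, plus strand) encodes the transactivator that raises classical class I genes, B2m, Tap1 and Psmb9 in lymphocytes and after interferon gamma. Of the 10 genes it had the largest fold change between the diets. Its level was 3.71, 1.90 and 1.64 CPM in ADF Crtc2 muscle and 6.13, 7.77 and 13.2 CPM in ADF GFP muscle, against 23.3, 10.9 and 40.2 CPM in fed Crtc2 muscle and 65.4, 30.8 and 37.3 CPM in fed GFP muscle. With either vector the ADF libraries lay below the fed libraries, and under ADF the Crtc2 libraries lay below the GFP libraries. ADF over fed gave -3.36 ± 0.51 in Crtc2 muscle (adjusted p = 0.00013), a level 10.3-fold lower, and -2.30 ± 0.48 in GFP muscle (adjusted p = 0.00449), a level 4.91-fold lower. Averaged over both vectors Nlrc5 fell by 2.83 ± 0.35 on the log2 scale under ADF (adjusted p = 5.12e-06), and it was called in every alternative of the 3 diet comparisons. Crtc2 over GFP under ADF gave -1.91 ± 0.49, not past the threshold with edgeR (adjusted p = 0.0753, from 0.00123 to 0.389 over 13 alternatives) and past it with DESeq2 (adjusted p = 0.0164), and -0.85 ± 0.46 in fed muscle (adjusted p = 0.881).

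Nlrc5 also stood lower relative to B2m under ADF. The ratio of Nlrc5 to B2m counts was 0.028, 0.0112 and 0.0111 in ADF Crtc2 muscle and 0.0115, 0.0168 and 0.0202 in ADF GFP muscle. It was 0.0866, 0.0315 and 0.0961 in fed Crtc2 muscle and 0.0732, 0.052 and 0.0543 in fed GFP muscle. All ADF libraries were below all fed libraries. In ADF muscle the 2 vectors overlapped in this ratio, and in fed muscle they did so too.

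Per kilobase of exon, B2m was the most abundant of the 10 in all 4 groups, at 174 ± 21.8, 641 ± 112, 401 ± 86.9 and 842 ± 179 CPM per kilobase in ADF Crtc2, ADF GFP, fed Crtc2 and fed GFP muscle (SD, n = 3), and Nlrc5 the least, at 0.284 ± 0.133, 1.07 ± 0.439, 2.92 ± 1.73 and 5.24 ± 2.17. H2-K1 and H2-D1 followed B2m and did not differ beyond their spread in ADF GFP muscle (198 ± 68.4 and 195 ± 59.7). Tapbp came after them with 9.14 ± 3.39 in ADF Crtc2, 22.8 ± 4.52 in ADF GFP, 20 ± 6.46 in fed Crtc2 and 20.4 ± 2.9 in fed GFP muscle. The order of H2-T23, Psmb8, Psmb9, Tap1 and Tap2 below it changed between groups, and neighbours in that order mostly overlapped in spread. They stood at 1.46 to 2.99 in ADF Crtc2 muscle, 4.44 to 16.4 in ADF GFP, 5.31 to 9.67 in fed Crtc2 and 5.48 to 19.9 in fed GFP muscle. Lengths are the union of GENCODE exons, which retained-intron transcripts make longer than the main mRNA.

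Libraries of 1 group were ordered alike over the genes. Fed Crtc2 replicate 3 was the highest of its group for 10 of 10 genes, ADF GFP replicate 2 the lowest for 9, and fed GFP replicate 1 the highest for 8. In fed Crtc2 replicate 3, 8 T cell markers summed to 67.7 CPM and 23 interferon-induced GTPases, chemokines and related genes to 1412 CPM, beside 9.19 and 10.3 CPM, and 538 and 628 CPM, in the other 2 libraries of that group. Both sums were highest in the library in which the class I genes were highest, and their part in the fed Crtc2 values was not tested.

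Beyond the 10 genes, other parts of the pathway differed between the diets and in both directions. Of 13 genes of peptide supply and loading, 3 were higher and 4 lower under ADF in Crtc2 muscle, 2 were higher and 2 lower in GFP muscle, and 0 passed for Crtc2 against GFP with edgeR under either diet (unadjusted p under 0.05 for 3 under ADF and 1 in fed muscle, and 1 and 0 with DESeq2). Canx, the lectin chaperone calnexin that holds new heavy chains, stood at 137 ± 20.6 CPM in ADF Crtc2 and 134 ± 10.9 CPM in ADF GFP muscle, against 63.7 ± 8.28 CPM in fed Crtc2 and 58.7 ± 14.8 CPM in fed GFP muscle (SD, n = 3), and rose with either vector (1.11 ± 0.21, adjusted p = 0.00141, and 1.19 ± 0.21, adjusted p = 0.00116). The proteasome activator subunits parted. Psme1 and Psme2, which interferon gamma induces, fell in Crtc2 muscle (-0.82 ± 0.24 and -1.64 ± 0.32) and in GFP muscle (-0.96 ± 0.24 and -1.22 ± 0.31). Psme3, which builds a nuclear activator, rose in Crtc2 muscle (0.93 ± 0.23) and in GFP muscle (0.95 ± 0.23), and all 6 adjusted p-values were under 0.05. In Crtc2 muscle Hspa5, a chaperone of the endoplasmic reticulum, rose (0.58 ± 0.17, adjusted p = 0.0263), and Tapbpl, a peptide editor related to tapasin (-2.0 ± 0.49, adjusted p = 0.00995), and Psmb10, the remaining immunoproteasome subunit (-1.57 ± 0.46, adjusted p = 0.0366), fell.

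**Figure D4:**
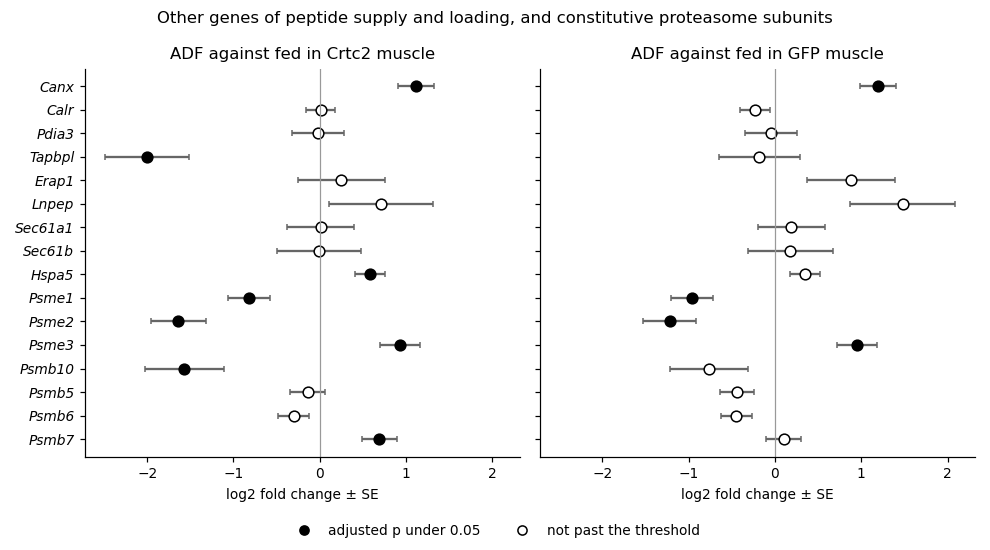
Log2 fold changes with SE for ADF against fed muscle of 13 genes of peptide supply and loading and the 3 constitutive proteasome subunits, with Crtc2 muscle on the left and GFP muscle on the right, where filled points passed an adjusted p of 0.05. Canx and Psme3 are filled on the right of 0 and Psme1 and Psme2 on the left of 0 in both panels.

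Of the constitutive subunits Psmb5, Psmb6 and Psmb7, which the immunoproteasome subunits replace, 0 of 3 passed between the diets in GFP muscle with edgeR (2 at an unadjusted p under 0.05 and 1 with DESeq2). Psmb7 rose under ADF in Crtc2 muscle (0.69 ± 0.20, adjusted p = 0.0276). Psmb5 averaged 120 ± 15.3 CPM in ADF Crtc2, 97.1 ± 21.8 CPM in ADF GFP, 132 ± 3.21 CPM in fed Crtc2 and 132 ± 21.2 CPM in fed GFP muscle (SD, n = 3).

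Among 20 further heavy chains and class I-like genes, 18 were in the table and 16 were tested. H2-Q6, a nonclassical chain, passed for Crtc2 against GFP under ADF, with 6.93 ± 3.54 CPM in ADF Crtc2 and 36.9 ± 14.7 CPM in ADF GFP muscle (SD, n = 3; log2 fold change -2.41 ± 0.43, adjusted p = 0.0113). It passed for ADF against fed in Crtc2 muscle too, against 42 ± 18.2 CPM in fed Crtc2 muscle (-2.59 ± 0.43, adjusted p = 0.000489). With edgeR 0 of the 16 passed in fed muscle between the vectors (5 at an unadjusted p under 0.05, 0 with DESeq2) and 0 in GFP muscle between the diets (3 and 1). Averaged over both vectors H2-Q6, H2-Q7 and H2-T10 were lower under ADF, and averaged over both diets H2-Q6 and H2-Q7 were lower with Crtc2. H2-Q7 shares 3.67% of the 50-base words of H2-K1 and 4.75% of those of H2-D1, and H2-Q10 and H2-Q1, which share the most with H2-K1 and H2-D1, had at most 2.17 CPM and 0.603 CPM as a group mean.

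Of 20 regulators of class I genes, 5 were lower under ADF in Crtc2 muscle and 0 higher. Irf1, an interferon-induced activator of class I and Nlrc5, had 8.75 ± 6.76 CPM in ADF Crtc2 muscle, against 50.9 ± 29.3 CPM in fed Crtc2 muscle (SD, n = 3, log2 fold change -2.54 ± 0.56, adjusted p = 0.00885). Irf9 (-2.04 ± 0.42) and Stat2 (-2.13 ± 0.58), which act in type I interferon signalling, and Socs1, a brake on interferon signalling with 4 counts in all in ADF Crtc2 muscle, against 850 in fed Crtc2 muscle, also fell (adjusted p = 0.00265, 0.0213 and 0.000855). In GFP muscle Atf1, a relative of Creb1, rose under ADF (2.12 ± 0.47, adjusted p = 0.00702) and Rfx5, a subunit of the factor bound to the X part of the SXY module, fell (-2.25 ± 0.62, adjusted p = 0.0276). For Crtc2 against GFP with edgeR, 0 of the 20 passed under ADF (4 at an unadjusted p under 0.05, 3 with DESeq2) and 0 in fed muscle (1 and 0). Creb1 itself averaged 9.98 ± 3.66 CPM in ADF Crtc2, 10.6 ± 0.711 CPM in ADF GFP, 18.1 ± 2.53 CPM in fed Crtc2 and 12.5 ± 3.04 CPM in fed GFP muscle.

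Interferon gamma (Ifng) was at 0 counts in the 3 ADF Crtc2 libraries and averaged 1.66 ± 1.61 CPM in ADF GFP, 0.856 ± 1.29 CPM in fed Crtc2 and 0.788 ± 0.71 CPM in fed GFP muscle. Of 5 genes of its signalling, Ifngr2, a receptor chain, rose under ADF in Crtc2 muscle (0.93 ± 0.22, adjusted p = 0.00842). Of 23 interferon-induced genes, edgeR called 6 lower under ADF in Crtc2 muscle (15 at an unadjusted p under 0.05, 14 called by DESeq2) and 1, Gbp9, in GFP muscle (3 and 2). With Crtc2 under ADF it called 2 lower (11 and 5), the guanylate-binding proteins Gbp3 (-2.38 ± 0.38, adjusted p = 0.00625) and Gbp2 (-1.97 ± 0.36, adjusted p = 0.0112). The list's log2 fold changes were negative for 23 of 23 genes in both the Crtc2 comparison under ADF (median -1.46) and the diet comparison in Crtc2 muscle (median -2.03). A list of 8 receptors held those that read class I molecules and relatives of such receptors. Of these, Cd8b1, Klrd1, Klrc1, Klrc2 and Lilrb4a were at 0 counts in all ADF Crtc2 libraries. Klrc1 and Klrc2 were at 0 counts in fed Crtc2 muscle too, and Klrc2 in fed GFP muscle. Lilrb4a, an inhibitory receptor of myeloid cells, had 60 to 106 counts in ADF GFP libraries and was called lower with Crtc2 under ADF (adjusted p = 0.0278). The list summed to 1.88 to 5.77 CPM in ADF Crtc2 muscle, 19.9 to 36.6 CPM in ADF GFP, 16.4 to 37.2 CPM in fed Crtc2 and 38.7 to 54.7 CPM in fed GFP muscle.

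Leukocyte and macrophage marker sums were lower with Crtc2 under ADF, as the class I genes were. Between the diets in GFP muscle the lists of leukocyte types went in different directions. Over 4 leukocyte markers (Ptprc, Cd53, Laptm5 and Coro1a) the sum was 25.6 to 37.1 CPM in ADF Crtc2 muscle, against 93.5 to 169 CPM in ADF GFP muscle, and 50.8 to 97.9 CPM in fed Crtc2 muscle, against 85.5 to 140 CPM in fed GFP muscle. Laptm5 (-2.46 ± 0.37, adjusted p = 0.005) and Coro1a (-2.28 ± 0.41, adjusted p = 0.0109) were lower with Crtc2 under ADF. In GFP muscle Laptm5 was higher under ADF (1.16 ± 0.35, adjusted p = 0.0491). Over 11 macrophage markers the sum was 186 to 277 CPM in ADF Crtc2 muscle, against 522 to 827 CPM in ADF GFP muscle, and 217 to 326 CPM in fed Crtc2 muscle, against 396 to 469 CPM in fed GFP muscle. Of these, 4 were lower with Crtc2 under ADF (Csf1r, C1qc, Lyz2 and Cd68), and 0 of the 11 passed between the diets with edgeR or DESeq2 (unadjusted p under 0.05 for 1 in Crtc2 muscle and 3 in GFP muscle). In GFP muscle the median log2 fold change of the 11 for ADF over fed was 0.69, with 1 negative, beside -0.40 for the 10 class I genes. That median was 0.68 for the 4 leukocyte markers and 0.06 for 5 natural killer cell markers. It was -0.1 for 8 T cell markers, -0.24 for 4 dendritic cell markers and -0.86 for 4 B cell markers. Over 8 T cell markers the sum was 1.34 to 4.82 CPM in ADF Crtc2, 21.4 to 68.2 CPM in ADF GFP, 9.19 to 67.7 CPM in fed Crtc2 and 40.5 to 98.3 CPM in fed GFP muscle, and Cd3g and Cd8b1 were at 0 counts in ADF Crtc2 muscle. The macrophage and leukocyte sums did not overlap between the vectors under ADF, as for 9 of the 10 class I genes. This was not particular to leukocyte lists. Fibroblast sums did not overlap there (636 to 978 CPM with Crtc2, 1260 to 2687 CPM with GFP). Nor did the sums of 3 satellite cell markers (0.632 to 2.76 CPM with Crtc2, 4.42 to 6.75 CPM with GFP).

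**Figure D5:**
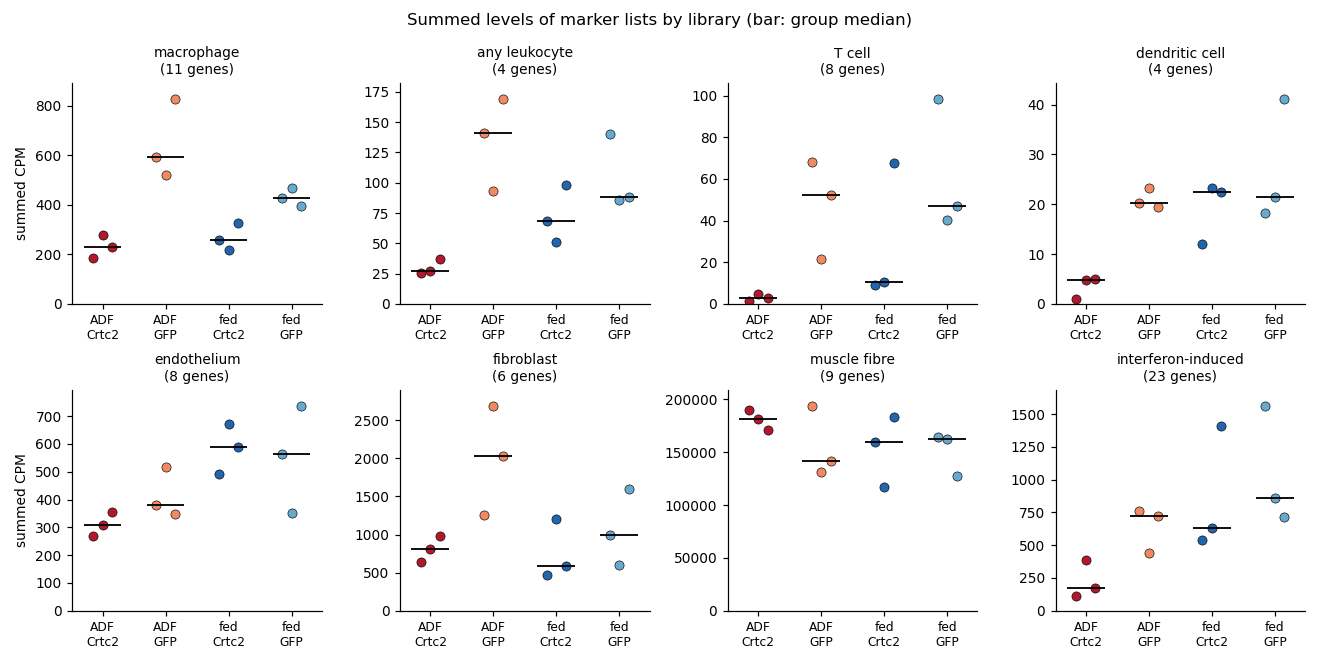
Summed CPM of 7 cell type marker lists and of 23 interferon-induced genes in the 12 libraries, with points for libraries and a bar for the median of 3. The macrophage, leukocyte, T cell, dendritic cell, fibroblast and interferon-induced sums of ADF Crtc2 muscle lie below those of ADF GFP muscle, and the endothelial and muscle fibre sums overlap.

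Natural killer cell markers (5 genes) summed to 0 to 1.71 CPM in ADF Crtc2, 5.29 to 16.8 CPM in ADF GFP, 3.79 to 19.4 CPM in fed Crtc2 and 9.73 to 21.3 CPM in fed GFP muscle, with Ncr1, Klrb1c, Gzma and Prf1 at 0 counts in ADF Crtc2 muscle. Gzma and Prf1 were at 0 counts in fed GFP muscle too. B cell markers (4 genes) summed to 0 to 3.15, 0.771 to 22.4, 2.1 to 5.67 and 6.46 to 21.5 CPM, and dendritic cell markers (4 genes) to 0.864 to 4.94, 19.4 to 23.3, 12.1 to 23.2 and 18.3 to 41.1 CPM in the same 4 groups. Endothelial markers (8 genes) summed to 269 to 354 CPM in ADF Crtc2 and 348 to 517 CPM in ADF GFP muscle, against 492 to 673 CPM in fed Crtc2 and 352 to 736 CPM in fed GFP muscle, and Egfl7, Kdr and Esam were lower under ADF in Crtc2 muscle. Egfl7 was lower in both Crtc2 muscle (-2.06 ± 0.26, adjusted p = 1.48e-05) and GFP muscle (-1.81 ± 0.25, adjusted p = 9.23e-05). Between the vectors 0 of the 8 endothelial markers passed with edgeR or DESeq2 under either diet (unadjusted p under 0.05 for 2 under ADF and 0 in fed muscle). Fibroblast markers (6 genes) summed to 636 to 978 CPM in ADF Crtc2 muscle, against 1260 to 2687 CPM in ADF GFP muscle, and to 463 to 1202 CPM in fed Crtc2 muscle, against 603 to 1598 CPM in fed GFP muscle. Under ADF 0 of the 6 passed between the vectors with edgeR (4 at an unadjusted p under 0.05, 1 with DESeq2), and Dcn was higher under ADF in GFP muscle (1.32 ± 0.34, adjusted p = 0.0293). Smooth muscle and pericyte markers (4 genes) summed to 205 to 252 CPM in ADF Crtc2, 240 to 405 CPM in ADF GFP, 227 to 450 CPM in fed Crtc2 and 331 to 568 CPM in fed GFP muscle, and all 4 had negative log2 fold changes in each of the 4 comparisons. Acta2, smooth muscle actin, was lower under ADF in Crtc2 muscle (-1.12 ± 0.24, adjusted p = 0.00381) and GFP muscle (-0.82 ± 0.24, adjusted p = 0.0411), and lower with Crtc2 over both diets (-0.83 ± 0.17, adjusted p = 0.024). The part of these cells in the class I values was not tested.

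Class I counts were also set against a leukocyte gene in the same library. The ratio of B2m to Ptprc counts, Ptprc being the CD45 of all leukocytes, was 18.5 to 42.6 in ADF Crtc2, 23.4 to 34.9 in ADF GFP, 28.6 to 42.3 in fed Crtc2 and 27.9 to 79.8 in fed GFP muscle, and all 4 groups overlapped. The ratio of H2-K1 to Ptprc was 14 to 39.2, 26.5 to 37.2, 32.1 to 53.1 and 34.6 to 90.9 in the same groups. The ratio of Nlrc5 to Ptprc was 0.224 to 0.518 in ADF Crtc2 and 0.348 to 0.584 in ADF GFP muscle, against 1.33 to 3.11 in fed Crtc2 and 1.45 to 4.33 in fed GFP muscle, with no overlap between the diets. B2m to Laptm5, another leukocyte gene, gave 7.22 to 16.8, 7.12 to 8.25, 11 to 14.2 and 19.4 to 27.5. H2-K1 to Laptm5 gave 5.02 to 13.8, 6.33 to 8.72, 11.8 to 18 and 25.8 to 31.3. In both ratios to Laptm5, unlike B2m to Ptprc, the fed GFP libraries lay above all others. The ADF GFP libraries lay below the fed Crtc2 libraries in both, and ADF Crtc2 overlapped each of these groups. How far leukocyte content accounts for the class I values was not tested.

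Among 11068 other named genes whose mean reached 2 CPM, the 8 whose pattern over the 12 libraries was most like the median of the 10 (smallest mean absolute difference of centred log2 CPM) were Fxyd5 (0.246), Irgm2 (0.25), Myl4 (0.26), Ifi30 (0.273), Fcer1g (0.291), Cxcl9 (0.291), Pim1 (0.297) and Tapbpl (0.301). The 10 genes themselves lay between 0.206 for B2m and 0.902 for Nlrc5, the gene least like the rest. Of the 8, Myl4 (-1.41 ± 0.26, adjusted p = 0.0113) and Fcer1g (-2.19 ± 0.42, adjusted p = 0.0135) were lower with Crtc2 under ADF. The 8 were picked by their levels in these same libraries, so their low levels in ADF Crtc2 muscle follow in part from the choice. Myl4 is a myosin light chain and Fcer1g the shared chain of activating Fc receptors on myeloid cells. Irgm2 and Cxcl9 are on the list of interferon-induced genes.

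Several of the 10 genes sit side by side. Psmb9, Tap1, Psmb8 and Tap2 lie within 34181987 to 34216321 on chromosome 17, and their exons overlap each other or antisense transcripts: 212 bases are shared by Tap1 and Psmb9 on opposite strands, 498 bases of Psmb8 and 165 of Tap2 by Gm20496, 533 bases of Tap2 by Gm15821 and 904 bases of Tapbp by Gm19412, each on the opposite strand. The strand setting of the counting is not given in the sources used here, so reads from these stretches cannot be assigned to a strand. Of the 50-base words of their transcripts, 0 of B2m, Nlrc5 and Psmb9 and under 3% of Tap1, Tap2, Tapbp and Psmb8 occur in transcripts of other genes in the same orientation. Words of the opposite strand were not searched, so the opposite-strand overlaps above are not part of any of these shares.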

How the data were processed

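RNA from tibialis anterior muscle was sequenced in 12 libraries, and the authors deposited 1 table of whole-number read counts per gene. Per the submitters' processing notes, HISAT2 2.0.5, SAMtools 1.7, featureCounts from Subread 1.6.1 and DESeq2 1.18.1 were named, with build GRCm38 (mm10). The settings of these tools, strand included, are not given in the sources used here. In every library 68.9% to 74.7% of the deposited counts from 2 to 21 were even. No source used here gives the reason, and counts divided by 2 were tried as an alternative. Total counts of 24232450 to 34610417 per library set the precision.

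Groups came from the labels. Tests used edgeR 4.0.16 (R 4.3.3): TMM scaling, a filter on low counts over the 4 groups, a robust quasi-likelihood fit of 4 group means to all 12 libraries, and Benjamini-Hochberg adjustment over 16007 genes at a threshold of 0.05. SE is the log2 fold change divided by the root of F. Alternatives were DESeq2 1.42.0, library totals, other filters, a replicate block, the compared groups alone and each library left out. Gene positions and exon lengths are from GENCODE mouse release M21, in which 99.9% of the genes were found, and promoters from RefSeq (GRCm38.p6).

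The 10 genes and the gene lists were chosen with earlier results of these data known. Named were all 10 genes, up to 6 called genes per list and comparison by smallest adjusted p, heavy chains sharing sequence with one of the 10, and the 8 genes most like the 10. Psmb5, Creb1, Ifng and Ptprc are named for their roles, outside that rule. No pair of libraries within a group agreed within counting noise. Values of 1 listed gene are not reported here.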

Additional observations from a re-analysis of the deposited data

How the results depend on the processing

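Leaving out 1 library at a time, the number of the 10 genes called was 4 to 8 for ADF against fed in Crtc2 muscle, 1 in GFP muscle and 4 to 7 over both vectors. For Crtc2 against GFP it was 1 to 5 under ADF, 0 to 1 in fed muscle and 2 to 6 over both diets, and for the interaction it was 0. Without the filter on low counts it was 2 for ADF against fed in GFP muscle, and for Crtc2 against GFP 8 under ADF, 3 in fed muscle and 8 over both diets, and 1 (H2-K1) for the interaction. Of 22607 genes, that fit called 860 higher and 608 lower for ADF against fed in GFP muscle. It called 17 higher and 41 lower for Crtc2 against GFP in fed muscle, and 10 and 57 for the interaction. Library totals gave 8 for ADF against fed over both vectors, and DESeq2 gave 1 for Crtc2 against GFP in fed muscle. The cause of these moves was not tested. With the replicate number as a block, the counts were 5 (ADF against fed, Crtc2 muscle), 1 (GFP muscle), 5 (both vectors), 4 (Crtc2 against GFP under ADF), 0 (fed muscle), 3 (both diets) and 0 (interaction). The block ended the calls of H2-T23 (adjusted p = 0.0872 in Crtc2 muscle, 0.0754 under ADF and 0.0704 over both diets) and of Psmb8 in Crtc2 muscle (0.0633), and no other call of the 10 genes. The numbers are not shown to pair libraries: deviations of same-numbered libraries correlated at -0.038 to 0.134 over 18 pairs, 1 of them over 0.1, and 6 of 12 libraries were closest to their own number. Fold changes that were not called changed sign 13 times. ADF over fed in GFP muscle turned for H2-D1 to -0.00089 with library totals and -0.0029 with a minimum mean of 10 CPM, and ranged from -0.14 to 0.41 with 1 library left out, for H2-T23 from -0.65 to 0.08 and for Tap2 from -0.69 to 0.04. Crtc2 over GFP in fed muscle ranged from -0.31 to 0.16 for Tapbp and from -0.95 to 0.49 for Psmb9, which was -0.27 with the block, and the interaction of Psmb9 from -1.63 to 0.08. Low counts limit Nlrc5 and Tap1, with as few as 46 and 33 reads in a library.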
